A study of Macaca mulatta with 2 samples.

Results

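The genes described here are 40 that are used as marks of cell division, of which 39 had a row among the 35432 genes measured: 18 genes of S phase, 18 of G2/M phase, and *STMN1*, *HMGB2* and *TUBB*, which dividing cells make in large amounts and resting cells also use. *UBE2C* was named too but had no row by symbol or gene ID, and it is not analysed here. *DUT* was found by its gene ID, the others by symbol. The cells were DP T cells from the blood of 1 healthy, untreated rhesus monkey (*Macaca mulatta*) aged 6 years, taken with CD4 REAlease MicroBeads and then CD8 MicroBeads, so the data are 1 sample without replicates. A 5′ library of RNA and a library of CD4 and CD8 feature barcodes (FB), which are antibody tags read as DNA, share the 7923 cell barcodes. Each molecule was counted 1 time by its unique molecular identifier (UMI), and 7601 barcodes passed the cell filter. Members were described in the 7311 of these (96.2%) that held a UMI of *CD3E*, which encodes a signalling subunit of the T cell receptor, with a median of 3656 UMIs (quartiles 3001 and 4720).

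A resting T cell in blood is in G0 and makes little of this mRNA. On the way into S phase, E2F factors switch on the genes that license origins and copy DNA, and histone mRNA then rises while DNA is copied. The genes of mitosis follow later, and many of them are held down in resting cells through the CHR element of their promoters, while NF-Y binds their CCAAT elements and activates them. T cells are made to divide by antigen or by cytokines, and the cells that divide in blood are few.

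The promoters of members show both kinds of element and are given for the 3 S genes and the 3 G2/M genes whose 150 bases before the annotated start held them. The sequence is that of the RefSeq annotation of Mmul_10, on the strand of the gene. In the S genes the capitals mark matches to an E2F site, which was searched as TTTCCCGC, TTTCGCGC, TTTGCCGC and TTTGGCGC. In the G2/M genes the capitals mark CHR (TTTGAA or TTCGAA) and CCAAT, which reads ATTGG on the other strand. All were searched on both strands, and neighbouring matches may overlap, as in *MCM6* and *MKI67*.
MCM6, chr12:21038176-21038325, minus strand: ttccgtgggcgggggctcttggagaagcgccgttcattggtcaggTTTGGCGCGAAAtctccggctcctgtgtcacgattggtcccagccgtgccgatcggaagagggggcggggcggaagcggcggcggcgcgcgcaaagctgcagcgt
MCM5, chr10:16147209-16147358, minus strand: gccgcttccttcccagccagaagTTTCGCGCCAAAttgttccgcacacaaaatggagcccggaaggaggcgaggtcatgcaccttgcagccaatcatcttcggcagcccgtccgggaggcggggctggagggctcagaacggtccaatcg
MCM3, chr4:117252236-117252385, plus strand: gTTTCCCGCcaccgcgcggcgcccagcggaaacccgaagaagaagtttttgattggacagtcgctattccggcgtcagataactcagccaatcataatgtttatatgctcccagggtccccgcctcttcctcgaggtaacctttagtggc
MKI67, chr9:128554145-128554294, minus strand: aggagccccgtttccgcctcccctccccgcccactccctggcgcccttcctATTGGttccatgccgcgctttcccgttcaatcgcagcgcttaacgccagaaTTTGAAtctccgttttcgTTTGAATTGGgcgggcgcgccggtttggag
TOP2A, chr16:51571946-51572095, minus strand: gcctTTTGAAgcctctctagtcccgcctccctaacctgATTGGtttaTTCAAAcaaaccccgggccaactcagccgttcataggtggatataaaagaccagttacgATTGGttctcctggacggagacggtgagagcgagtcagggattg
NUSAP1, chr7:17783950-17784099, plus strand: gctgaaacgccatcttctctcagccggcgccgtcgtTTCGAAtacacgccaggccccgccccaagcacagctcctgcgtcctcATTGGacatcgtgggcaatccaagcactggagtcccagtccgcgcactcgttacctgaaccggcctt

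From 250 bases before to 50 after the start, 7 of 18 S genes (38.9%) held an E2F match, against 1 of 19 G2/M genes, *CDK1*, and 3.54% of 20787 protein-coding genes. The S genes with a match were *MCM3*, *MCM4*, *MCM5*, *MCM6*, *TYMS*, *GINS2* and *CLSPN*. A CHR match was found in 12 of 19 G2/M genes (63.2%), against 2 of 18 S genes and 15.6% of all genes. CHR and CCAAT together were found in 8 of 19 G2/M genes (42.1%), in none of the 18 S genes and in 6.33% of all genes. *UBE2C* is counted among these 19, since the annotation places it. A match is a description of the letters in the window and does not show binding.

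The members were low in these cells, and most of their UMIs came from few genes. The 18 S genes had 8889 UMIs in all, the 18 G2/M genes 1634, and the 3 genes of broader use 17028. Levels are given as CPM, the summed UMIs of a gene over all gene UMIs of the cells in question, scaled to 1000000, and since 1 UMI stands for 1 molecule they need no scaling by length. Intervals are 95% and cover counting error only, because the cells of 1 animal are not replicates. Those of levels and ratios take each UMI as independent and leave out the spread between cells, so they are too narrow where few cells hold most UMIs.

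Among the S genes, those of nucleotide supply stood at both ends. *DUT* (chr7:24751303-24763889 of Mmul_10), which removes dUTP, was the highest at 114 CPM and had a UMI in 2549 cells (34.9%), and the 86 cells with B cell genes and no CD3 gene reached 44.2%. *RRM1*, the large subunit of ribonucleotide reductase, was found in 1150 cells (15.7%), but its partner *RRM2* (chr13:98609654-98646534) in 65 (0.889%). The UMIs of *RRM2* lay densely in these cells, with 212 in all and up to 34 in a cell. *TYMS*, thymidylate synthase, was found in 43 cells and *TK1*, thymidine kinase, in 19 (0.260%). *PCNA*, the sliding clamp of DNA polymerases, was found in 1222 cells (16.7%) at 50.4 CPM.

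The helicase subunits *MCM2* to *MCM7* formed a series from 3.79 CPM for *MCM2* to 18.3 CPM for *MCM7*. They were found in 89 to 447 cells. *CDC6*, which loads the helicase, *CLSPN*, an adaptor of the replication checkpoint, and *UHRF1*, which carries DNA methylation through replication, were each found in under 0.5% of cells, with 30, 30 and 40 UMIs. *FEN1*, the flap endonuclease, had 76 UMIs in 75 cells and never more than 2 in a cell. In all, 11 of the 18 S genes were found in under 2% of cells.

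The G2/M genes were rarer, and 16 of 18 were found in under 2% of cells. *CENPF*, a kinetochore protein, had a UMI in 274 cells (3.75%) and *MKI67* (chr9:128522685-128554144), which encodes the Ki-67 antigen, in 205 (2.80%). *TOP2A*, the topoisomerase that untangles chromosomes, followed with 115 cells. *MKI67* had up to 19 UMIs in a cell, *CCNA2* (cyclin A2) up to 18 and *TOP2A* up to 17. In contrast, *CCNB1* (cyclin B1) had 102 UMIs in 101 cells, with at most 2 in any cell. *BUB1*, a kinase of the spindle checkpoint, was the rarest member, with 12 UMIs in 10 cells.

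The 3 genes of broader use were common in all cells. *TUBB*, a beta-tubulin, was found in 55.7% of cells at 243 CPM, *HMGB2*, a chromatin protein, in 51.5% at 213 CPM, and *STMN1*, which frees tubulin from microtubules, in 24.5% at 109 CPM. They were used to choose no cells.

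Cells were put in classes by how many genes of a list had a UMI. An S cell had 3 or more S genes and fewer than 3 G2/M genes, a G2/M cell had 3 or more G2/M genes and fewer than 3 S genes, and an S+G2/M cell had both. There were 377 S cells (5.16%, 4.66 to 5.69), 10 G2/M cells (0.137%, 0.0656 to 0.251) and 29 S+G2/M cells (0.397%, 0.266 to 0.569). The other 6895 cells are called cells of no class, of which 2618 had no gene of either list. All 39 cells with 3 or more G2/M genes made 0.533% of the cells (0.380 to 0.729).

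**Figure D1:**
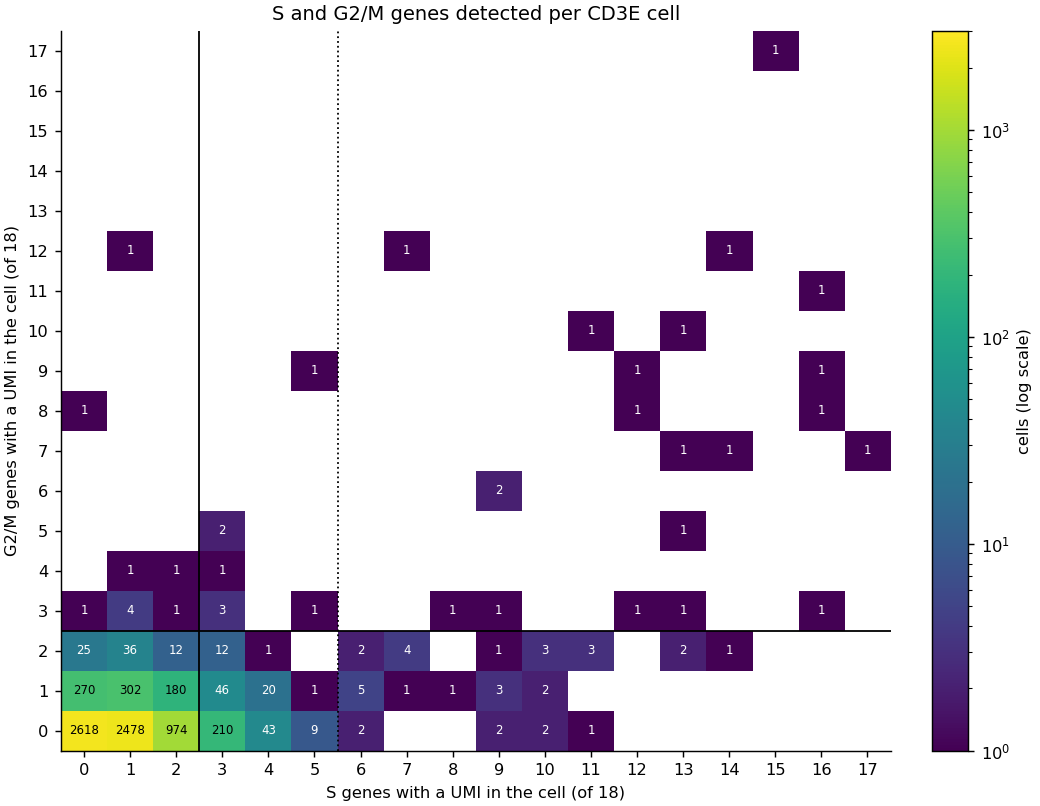
Cells with CD3E by the number of S genes (x axis) and G2/M genes (y axis) that had a UMI, with the number of cells in each square on a log colour scale, solid lines at 3 genes and a dotted line at 6 S genes. The 2618 cells without any gene lie at the lower left, 274 cells have exactly 3 S genes, and 21 of the 56 cells with 6 or more S genes lie above the line for G2/M genes.

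Of the 377 S cells, 268 (71.1%) had exactly 3 S genes, and 304 (80.6%) held at least 2 of *DUT*, *PCNA* and *RRM1*. A further 1166 cells of no class had exactly 2 S genes. S cells had a median of 5376 UMIs against 3603 in cells of no class, and after thinning, in which 2000 UMIs were drawn from each cell and shallower cells dropped, 80 S, 5 G2/M and 8 S+G2/M cells were left among 6935 cells. The number of S genes per cell fell from 274 cells with 3 genes to 12 with 5, and 56 cells held 6 to 17. Cells with 6 or more S genes and fewer than 3 G2/M genes are given as a group of their own, a limit set after these numbers had been seen. There were 35 of them (0.479%, 0.334 to 0.665), inside the 377 S cells, with a median of 6240 UMIs. The limit is not sharp, since 10 cells had 5 S genes and 9 had 6.

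The G2/M limit was also shallow, with 15 of the 39 cells at exactly 3 G2/M genes and 102 cells at exactly 2. *MKI67* was also found outside these cells. Of the 205 cells with *MKI67*, 33 had 3 or more G2/M genes, 35 were S cells and 137 (66.8%) had no class. In 126 of the 205 (61.5%) it was the only G2/M gene. Among *MKI67* cells, *TYMS* was found in 12.2% against 0.253% of other cells, *BIRC5* (survivin) in 9.76% against 0.0704%, and *STMN1* in 38.0% against 24.1%.

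Markers of other cell types and doublet scores differed between the classes. The B cell genes *MS4A1*, *CD79A* and *CD79B* stood at 86.3, 76.5 and 85.4 CPM in S cells, against 14.8, 23.5 and 14.4 CPM in cells of no class. In contrast, *MS4A1* had no UMI in the 35 cells with 6 or more S genes or in the 39 cells with 3 or more G2/M genes, *CD79A* had 2 and 6 UMIs and *CD79B* 1 and 3. Of the S cells, 14.3% were among the 5% with the highest doublet scores, against 17.1% with 6 or more S genes, 5.13% with 3 or more G2/M genes and 4.68% of no class. All 7 T cell genes stayed within 2-fold of cells of no class in both groups. Of the S cells 24 (6.37%) held 3 or more UMIs over 5 B cell genes, against 1.02% of cells of no class. The share of S cells without the highest doublet scores is given further below. Whether the B cell genes in S cells came from doublets was not tested.

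Each member was then compared in cells chosen without it, by the other members of its list, so that its own UMIs did not place it. The value is the log2 ratio of CPM + 10 between the cells of its phase and cells of no class, or of any class for the 3 broader genes. By this measure 33 of 39 members were at least 2-fold higher, 14 of 18 S genes, 17 of 18 G2/M genes and 2 of 3 broader genes. Of 9988 other genes, 0.491% passed that limit in all class cells against cells of no class and 0.02% were lower by as much. In cells with 3 or more G2/M genes, the nearer set for the G2/M genes, 5.15% were higher and 1.59% lower. The interval of the plain ratio lay above 0 for all 39. The median was 1.38 for S genes and 2.61 for G2/M genes. The cells so chosen numbered 179 to 406 for an S gene and 28 to 39 for a G2/M gene. Of all genes tested, the share past 2-fold higher and lower was 0.3% and 0.03% in S cells, 10.3% and 15.6% in G2/M cells and 5.93% and 2.34% in S+G2/M cells.

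*MKI67* reached 355 CPM in 28 cells chosen by the other G2/M genes and 5.94 CPM in cells of no class, a log2 ratio of 4.52. *CCNA2* followed at 156 CPM against 1.31, and *TOP2A* at 167 against 3.14. *BIRC5* was found in 19 of 39 such cells (48.7%) and in 5 of 6895 cells of no class (0.0725%). The G2/M gene below 2-fold on CPM + 10 was *AURKA*, the kinase Aurora A, at a log2 ratio of 0.94 with 4 UMIs. *CCNB1* was next at 1.21 with 7. Without the added 10 CPM their log2 ratios were 3.21 (1.26 to 4.70) and 2.67 (1.31 to 3.77).

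Among the S genes *RRM2* had the highest log2 ratio, 2.83, with 69.0 CPM against 1.13. The *MCM* genes lay between 1.07 (*MCM6*) and 2.08 (*MCM4*). *TK1* had all its 53 UMIs in class cells and none in the 6895 cells of no class. The lower end of its plain log2 ratio was 7.17. Set against 3 UMIs over the cells of no class, the limit that a count of 0 allows, its level was 183-fold higher. The S genes below 2-fold were *RRM1* (0.69), *CDC6* (0.80), *FEN1* (0.34) and *CLSPN* (0.999). Without the added 10 CPM the log2 ratios of *CDC6* and *CLSPN* were 4.598 (3.41 to 5.91) and 6.54 (4.84 to 8.91). Those of *RRM1* and *FEN1* were 0.81 (0.54 to 1.08) and 1.28 (0.33 to 2.13).

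**Figure D2:**
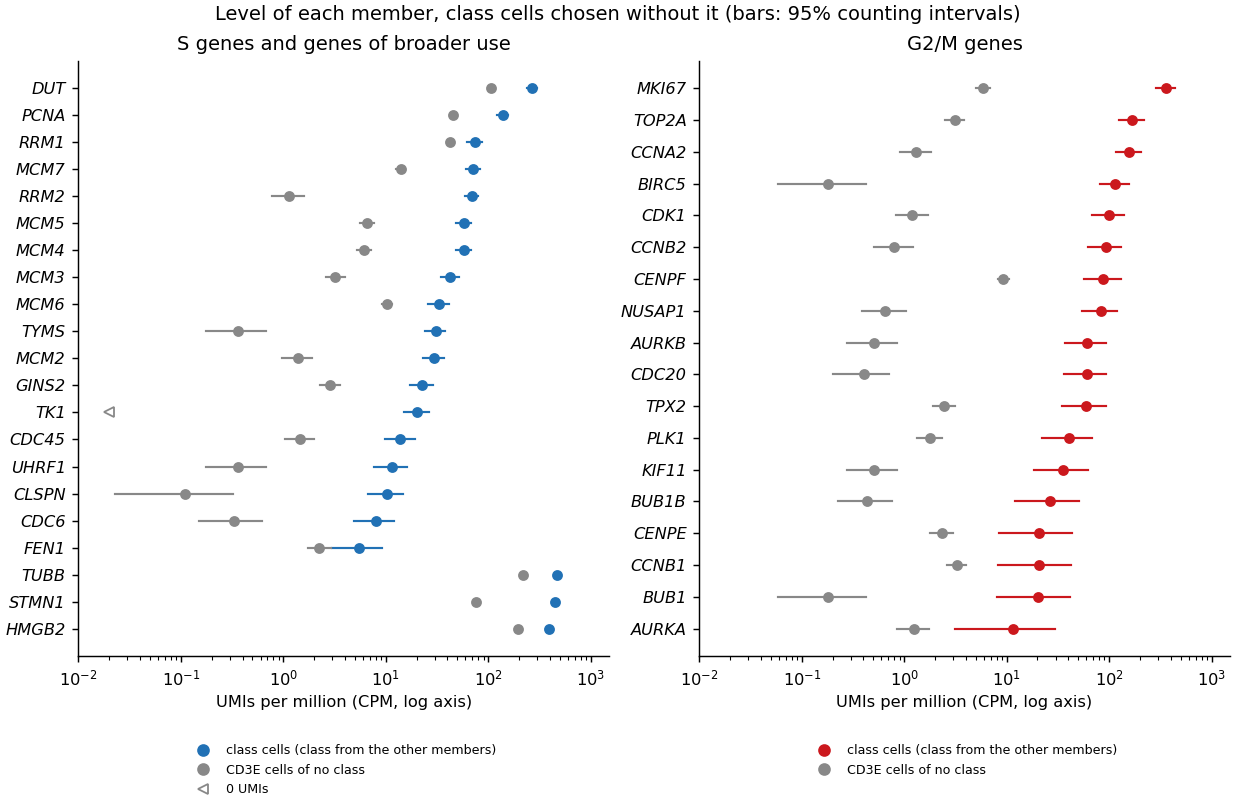
Level of each member in CPM on a log axis, in cells of its phase chosen by the other members (coloured) and in cells of no class (grey), with 95% counting intervals and a triangle for 0 UMIs. Coloured points lie to the right of grey ones for all 39 members, with the widest gap in a gene seen in both for BIRC5 (115 against 0.182) and the narrowest for RRM1 (73.9 against 42.0).

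The members also differed in how many of their UMIs lay in the cells of their phase, chosen by the other members as above. These cells held 100% of *TK1*, 90% of *CLSPN*, 87.9% of *TYMS*, 87.0% of *BIRC5* and 84.9% of *RRM2* UMIs. They held 6.86% of *CCNB1*, 7.96% of *CENPF*, 8.54% of *CENPE*, 9.79% of *DUT* and 9.80% of *RRM1*. More than 50% of the UMIs lay in such cells for 8 of 18 S genes and 7 of 18 G2/M genes. The cells chosen differ between genes, so the shares are not on the same footing. They numbered 179 for *DUT* and 406 for *TK1*, and for G2/M genes they leave out S cells. Of the 314 *CENPF* UMIs, 255 lay in cells of no class.

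The lists were also set against each other, with cells chosen by 1 list and measured by the other. In the 39 cells with 3 or more G2/M genes, 17 of 18 S genes were at least 2-fold higher than in all other CD3E cells, where 4.89% of 9988 other genes passed, and the exception was *FEN1* with 2 UMIs. *RRM2* had 157 of its 212 UMIs there, a plain log2 ratio of 7.93 (7.48 to 8.40), and *TK1* 43 of 53. *DUT* was found in 32 of the 39 cells and *PCNA* in 28. In the 56 cells with 6 or more S genes, 15 of 18 G2/M genes were at least 2-fold higher, again where 4.89% of other genes passed. *CDK1*, the kinase that starts mitosis, was found in 23 of these 56 cells and *MKI67* in 33. Below the limit were *CCNB1* (3 UMIs), *AURKA* (2 UMIs) and *BUB1* (3 UMIs). Without the added 10 CPM the intervals of *CCNB1* (-1.35 to 2.54) and *AURKA* (-1.35 to 3.70) span 0. So few UMIs do not show that the levels of these genes were the same. The interval of *BUB1* lay above 0, at a plain log2 ratio of 4.41 (1.89 to 6.41).

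The 3 genes that chose no cells were higher in both groups, most with 3 or more G2/M genes. *STMN1* stood at 75.8 CPM in cells of no class, at 1199.5 CPM with 6 or more S genes and at 2007 CPM with 3 or more G2/M genes, where 36 of 39 cells held it. *TUBB* stood at 220.3, 673 and 1875 CPM, and *HMGB2* at 196, 629.6 and 1308 CPM. From cells with 6 or more S genes to cells with 3 or more G2/M genes the log2 ratio was 0.74 (0.55 to 0.94) for *STMN1*, 1.06 (0.79 to 1.33) for *HMGB2* and 1.48 (1.23 to 1.73) for *TUBB*. None of these intervals reaches 0.

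The classes were next described by 7 genes of T cell identity, in raw UMIs. *CCR7* guides naive and central memory cells to lymph nodes. *GZMB* (granzyme B) and *CX3CR1*, a chemokine receptor, mark cytotoxic effector cells. *FOXP3* marks regulatory T cells and *CXCR3* cells of Th1 type, *TRAV10* is a variable segment of the T cell receptor alpha chain, and *HBA* encodes alpha-globin, the oxygen carrier of red cells. Comparisons are with cells of no class, by the plain log2 ratio of CPM.

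*GZMB* was high in most cells with 6 or more S genes and fewer than 3 G2/M genes. It was found in 31 of these 35 cells, with a lowest, median and highest value of 0, 20 and 63 UMIs, and 27 of 35 (77.1%) held 10 or more against 21.5% in cells of no class. Its level was 2933 CPM against 1205, a log2 ratio of 1.28 (1.18 to 1.39). In the 39 cells with 3 or more G2/M genes it was found in 25, with values of 0, 7 and 56 UMIs and a level of 1495 CPM, a log2 ratio of 0.31 (0.18 to 0.44). These cells fell into both kinds, since 18 held 10 or more UMIs and 14 held none, among them the cell with the most S genes, 17. Taken apart, 3 of the 10 G2/M cells held 10 or more and 3 held none. Of the 29 S+G2/M cells 15 held 10 or more and 11 held none. Without the upper limit on genes per cell the log2 ratio in cells with 3 or more G2/M genes was 0.05 on CPM + 10. The interval of the plain ratio was -0.07 to 0.16, so that it no longer differed beyond counting error. The 377 S cells lay between, at 1615 CPM and 0.42 (0.37 to 0.47). Between cells with 3 or more G2/M genes and cells with 6 or more S genes the log2 ratio of *GZMB* was -0.97 (-1.14 to -0.81). This interval leaves out the wide spread between cells within each group. The groups were also cut at unlike numbers of genes, and 21 of the 39 cells had 6 or more S genes as well. The B gene cells held *GZMB* in 8.14%.

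*CX3CR1* went with *GZMB*. It was found in 17 of 35 cells with 6 or more S genes (48.6%) and in 15 of 39 with 3 or more G2/M genes (38.5%), against 16.5% in cells of no class, and in none of the B gene cells. The log2 ratios were 1.33 (0.84 to 1.79) and 0.97 (0.49 to 1.41), with up to 5 and 6 UMIs in a cell. Every one of these 32 cells also held *GZMB*. In thinned cells the shares were 31.4% and 20.5% against 11.1%. For the 39 cells with 3 or more G2/M genes the binomial interval of the thinned share includes 11.1%, so a difference was not detectable at equal depth. Among cells with 10 or more *GZMB* UMIs, *CX3CR1* was found in 55.6% (35.3 to 74.5) with 6 or more S genes, 72.2% (46.5 to 90.3) with 3 or more G2/M genes and 46.7% (44.2 to 49.3) in cells of no class.

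*CCR7* was rarer in the same cells. It was found in 3 of 35 cells with 6 or more S genes (8.57%) and in 9 of 39 with 3 or more G2/M genes (23.1%), against 29.5% in cells of no class. The log2 ratios were -1.89 (-2.95 to -1.01) and -1.04 (-1.67 to -0.48). The 3 cells with *CCR7* and 6 or more S genes also held *GZMB*, while 6 of the 9 with 3 or more G2/M genes held none. S cells in all differed little, with 31.8% and a log2 ratio of -0.37 (-0.56 to -0.19). The B gene cells held *CCR7* in 18.6%.

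**Figure D3:**
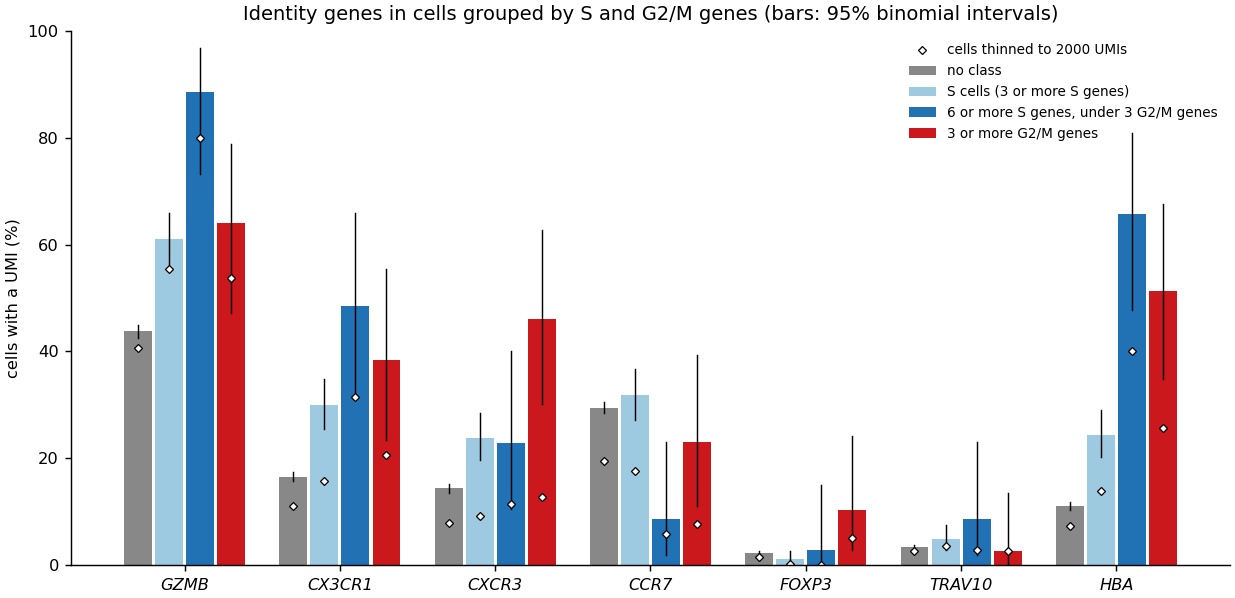
Percent of cells with a UMI of each identity gene in cells of no class (grey), S cells (light blue), cells with 6 or more S genes and fewer than 3 G2/M genes (dark blue) and cells with 3 or more G2/M genes (red), with 95% binomial intervals and diamonds that give the percent after thinning to 2000 UMIs. GZMB rises from 43.8% to 88.6% in the dark blue group and CCR7 falls from 29.5% to 8.57%.

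*FOXP3* was found in few of these cells. Of the 39 cells with 3 or more G2/M genes 4 held it, with 7, 6, 1 and 1 UMIs, a log2 ratio of 2.28 (1.42 to 3.03) against 2.23% of cells of no class. All 4 also had 3 or more S genes, none held *GZMB*, and with 15223 to 19490 UMIs they were the deepest of the 39 cells. Of the 35 cells with 6 or more S genes 1 held 1 UMI, and of all S cells 4 did, at a log2 ratio of -1.58 (-2.91 to -0.52), the opposite direction to the cells with 3 or more G2/M genes. With 2 or more genes as the limit, the value in cells with G2/M genes went from 1.49 to 0.70 on CPM + 10. *IL2RA*, the alpha chain of the interleukin 2 receptor, had 25 UMIs in 3 of the 39 cells and none in the 35. The cell with 7 *FOXP3* UMIs held 15 S genes and 17 G2/M genes.

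*CXCR3* was found in 18 of the 39 cells with 3 or more G2/M genes (46.2%), with up to 8 UMIs, and in 8 of the 35 cells with 6 or more S genes (22.9%), against 14.4% in cells of no class. The log2 ratios were 1.10 (0.54 to 1.604) and 0.96 (0.26 to 1.58), and the difference between the groups was within counting error, at 0.14 (-0.70 to 1.004). After thinning the shares were 12.8% (4.30 to 27.4) and 11.4% (3.20 to 26.7) against 7.91% (7.27 to 8.59), so a difference was not detectable at equal depth. The B gene cells held it in 9.30%.

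*TRAV10* had 9 UMIs in 1 of 39 cells and 11 UMIs in 3 of 35 cells, at log2 ratios of -0.27 (-1.40 to 0.66) and 0.49 (-0.52 to 1.34), both of which span 0. With 4 or more genes as the limit it had no UMI in 24 cells with G2/M genes, and the upper end of the interval was -0.93. This does not show a decrease. The interval takes each UMI as independent, but UMIs of the segment lie together in few cells, 247 of all 7311. The 1 of 39 and 3 of 35 cells with *TRAV10* all held *GZMB*, with 8 to 30 UMIs.

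**Figure D4:**
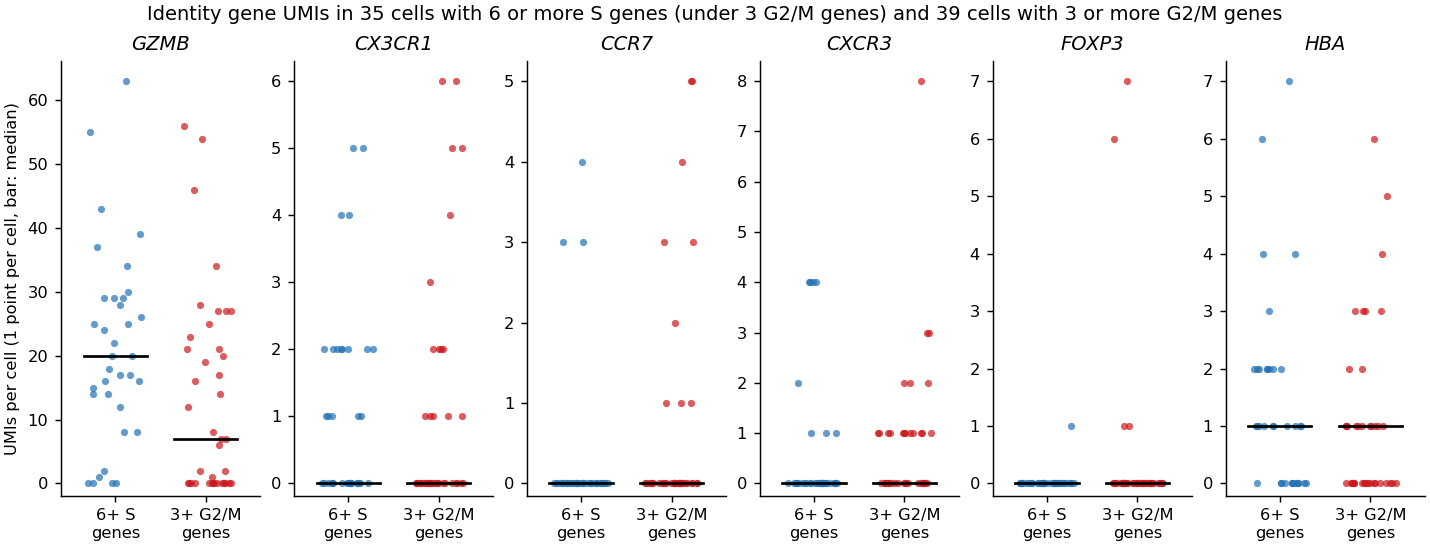
UMIs of 6 identity genes in each of the 35 cells with 6 or more S genes and fewer than 3 G2/M genes (blue) and the 39 cells with 3 or more G2/M genes (red), 1 point per cell and a bar at the median. GZMB has a median of 20 UMIs in the blue and 7 in the red group, and the FOXP3 values of 6 and 7 UMIs are single red cells.

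*HBA* was found in many of these cells at a low level. It was found in 23 of 35 cells with 6 or more S genes (65.7%) and 20 of 39 with 3 or more G2/M genes (51.3%), with at most 7 UMIs in a cell, against 24.4% of S cells and 11.1% in cells of no class. The summed level does not show this, because 1 cell of no class held 3270 of the 4549 *HBA* UMIs (71.9%), where the next cell held 11. Without this cell, which was left out after its value had been seen, the log2 ratio was 2.34 (1.90 to 2.75) with 6 or more S genes, 1.61 (1.13 to 2.06) with 3 or more G2/M genes and 0.75 (0.50 to 0.99) in S cells, while with it S cells stood at -1.26 (-1.50 to -1.03). In thinned cells the shares were 40%, 25.6% and 7.24%. *HBB*, the beta-globin of red cells, had no UMI in either group and 2659 in cells of no class, of which 1 cell held 2649.

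The share of *HBA* also went with *GZMB*. Among cells of no class it was found in 32.6% (30.3 to 35.1) of those with 10 or more *GZMB* UMIs and in 1.81% (1.41 to 2.28) of those with none. Among cells with 10 or more *GZMB* UMIs it was found in 19 of 27 (70.4%, 49.8 to 86.2) with 6 or more S genes and in 13 of 18 (72.2%, 46.5 to 90.3) with 3 or more G2/M genes. These cells were also deeper, with medians of 5750 and 8060.5 UMIs against 3329. The B gene cells held *HBA* in 14.0%.

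Seen from the side of the identity genes, 31 of 3273 cells with *GZMB* (0.947%, 0.644 to 1.34) had 6 or more S genes and fewer than 3 G2/M genes, against 4 of 4038 without (0.0991%, 0.0270 to 0.253), though cells with *GZMB* were shallower (medians 3311 and 4048.5 UMIs). For 3 or more G2/M genes it was 25 (0.764%, 0.495 to 1.13) against 14 (0.347%, 0.190 to 0.581). With *CCR7* 9 of 2163 cells had 3 or more G2/M genes (0.416%, 0.190 to 0.788), and the share without it was 0.583% (0.394 to 0.831), which overlaps.

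The antibody tags gave both coreceptors in many of these cells. The median CD4 FB was 440 UMIs with 6 or more S genes, 494 with 3 or more G2/M genes and 383 in cells of no class, and the median CD8 FB was 522, 423 and 336. Both tags exceeded the values under which 90% of B gene cells lay (191 for CD4 and 330.5 for CD8) in 65.7% (47.8 to 80.9), 53.8% (37.2 to 69.9) and 48.2% (47.0 to 49.4). The groups also differed in depth, and its part in the tags was not tested.

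Other genes of the cell cycle, which chose no cells, followed the members. Of 96 genes in lists of G1/S regulators, origin licensing and replication, and chromosome segregation and cytokinesis, 92 had a row and 58 had 50 or more UMIs. With 6 or more S genes, 36 of 58 were at least 2-fold higher on CPM + 10, where 4.94% of 9988 genes were, and with 3 or more G2/M genes 46 of 58, where 5.15% were. None was lower by 2-fold, against 2.98% and 1.59% of all genes. In all S cells 1 of 58 passed, *PCLAF*, where 0.3% of genes did, and in all class cells 7 of 58, where 0.491% did. The median over the 58 was 1.19, 1.85, 0.22 and 0.58 in this order, beside 0.05, 0.06, 0.05 and 0.06 over all genes tested.

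Of the replication genes, 19 of 27 and 24 of 27 were past 2-fold. *PCLAF*, the PCNA-associated factor, led with 163 and 224 CPM against 0.182 CPM in cells of no class. *LIG1*, the DNA ligase of replication, had 123.5 and 123.6 CPM, and *RPA3*, which binds single-stranded DNA, 399 and 403 CPM, against 17.1 and 78.4 CPM in cells of no class. Genes of chromosome segregation passed in 14 of 24 and 19 of 24. From 6 or more S genes to 3 or more G2/M genes the interval lay above 0 for 10 of these 24. It did so for 1 of 27 replication genes (*ATAD2*) and 2 of 7 G1/S regulators (*MYBL2* and *CKS1B*), and lay below 0 for none of 58. The share of all genes with such an interval was not computed, and the groups were themselves split by G2/M genes. An excess in any of these lists can therefore not be judged. *CENPM*, of the centromere, rose by a log2 ratio of 2.07 (1.14 to 3.14) and *ZWINT*, of the kinetochore, by 3.11 (1.10 to 6.24). *CDK4*, which drives cells through G1, was higher in both groups, at 104 and 69.0 CPM against 29.3.

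**Figure D5:**
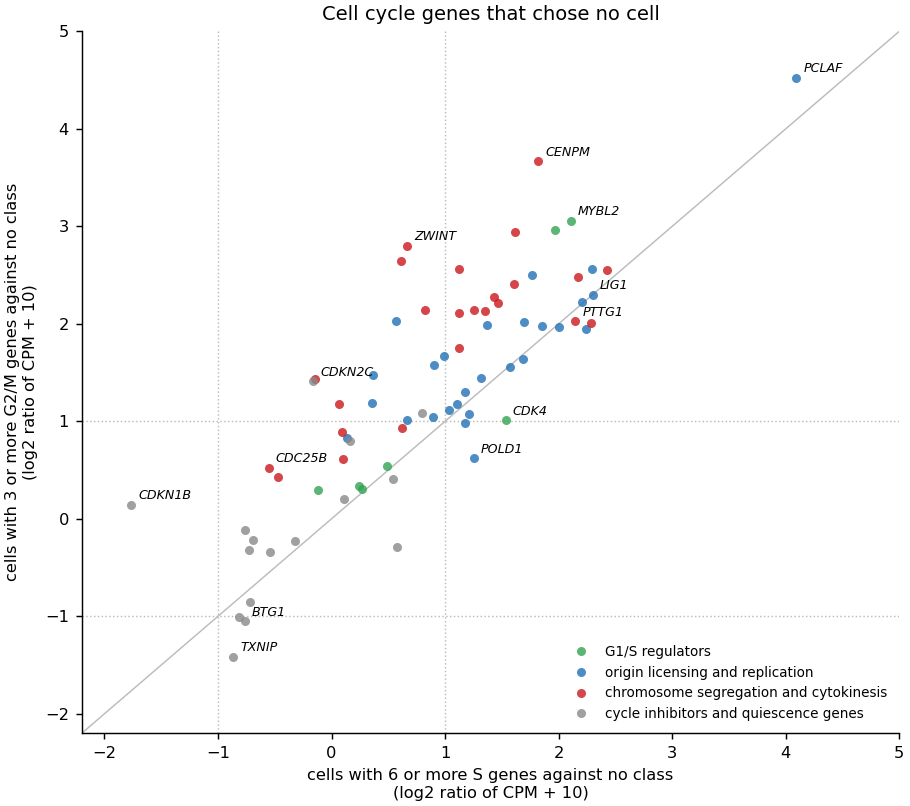
Log2 ratio of CPM + 10 against cells of no class in cells with 6 or more S genes (x axis) and cells with 3 or more G2/M genes (y axis) for 58 cell cycle genes and 16 inhibitors and quiescence genes that chose no cells, coloured by list, with dotted lines at 2-fold. Replication genes (blue) lie near the diagonal, segregation genes (red) mostly above it, and the inhibitors (grey) mostly near or below 0.

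Of 16 cycle inhibitors and quiescence genes with 50 or more UMIs, none was 2-fold higher and 1 was lower with 6 or more S genes: *CDKN1B* (p27), at 7.97 against 51.0 CPM from 2 UMIs, where 2.98% of all genes were lower. With 3 or more G2/M genes 2 were higher and 3 lower, where 5.15% of all genes were higher and 1.59% lower. *CDKN1A* (p21) and *CDKN2C* (p18) were higher, at 60.4 and 31.6 CPM. *TXNIP* stood at 649.9 CPM against 1749, and *BTG1*, an antiproliferative gene of resting lymphocytes, at 253 against 535. *FOXO1*, the quiescence factor, stood at 5.75 against 21.6 from 2 UMIs, a plain log2 ratio of -1.91 (-4.96 to -0.05). *TXNIP* in the 35 cells stood at 956 CPM. In all class cells against cells of no class none of the 16 passed in either direction.

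Lists of T cell states were also compared. Of 9 CTL genes 4 were 2-fold higher with 6 or more S genes, *GZMB*, *CX3CR1*, *NKG7* and *KLRD1*, against 4.94% of all genes, and none with 3 or more G2/M genes, against 5.15%. Of the genes of naive cells, *CCR7*, *CD7* and *PECAM1* were lower by 2-fold with 6 or more S genes, against 2.98% of all genes, and *TCF7* with 3 or more G2/M genes, against 1.59%. Of 8 activation genes tested, 1 was 2-fold higher in either group, where 4.94% and 5.15% of all genes were. In both it was *CD38*, an ectoenzyme of activated T cells, at 51.8 and 51.8 CPM against 18.1, from 6 cells in each. Of 4 Treg genes, *FOXP3* and *IL2RA* were higher with 3 or more G2/M genes, against 5.15% of all genes. *IL2RA* had no UMI in the 35 cells with 6 or more S genes, and the upper end of its log2 ratio was 0.45, so no decrease is shown.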

How the data were processed

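Per the submitters' processing notes and the methods, the authors used Cell Ranger 3.1.0, STAR 2.5.1b and the Mmul_10 build. They deposited raw UMI counts for genes and both tags in 1 matrix. The annotation release was not stated. Kept were genes of at least 3 barcodes, then barcodes of 200 to 4000 genes whose mitochondrial share was 20% or less, with 2 features without a symbol counted as mitochondrial. The members and gene lists were chosen with earlier results of these data known. With 1 sample no test could be run and no p-value is given. A log2 ratio of summed counts has an exact binomial interval, a share a Clopper-Pearson interval and a level a Poisson interval, all at 95% and for counting error only. Fold limits were 2-fold on CPM + 10, over the 9988 genes with 50 or more UMIs that were no members. Genes named were the members, the 7 identity genes, listed genes past 2-fold and the 10 genes with the largest ratios in each direction for S and G2/M cells; others are said to be chosen after their values were seen. Scrublet in scanpy 1.11.5 called 3 of 7601 cells doublets and was taken to have failed, so no cell was removed and only its scores are used. Gene names are those deposited, plus 720 from a table of gene IDs. Promoters and positions are from RefSeq for Mmul_10. Python 3.11.15, numpy 2.4.6, scipy 1.17.1, pandas 2.3.3 and matplotlib 3.10.9 were used. Scripts were tested on simulated data. Alternatives varied the class limits, gene lists, filters, added CPM and fold limit.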

Additional observations from a re-analysis of the deposited data

Results flagged for a closer look

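Cells with 3 or more G2/M genes were also found among barcodes that the comparisons above do not use. Of the 322 barcodes left out by the cell filter, 9 had 3 or more G2/M genes (2.80%, exact binomial interval 1.29 to 5.24), above the share of 0.932% that a count of 0 would allow. Of the 14 barcodes with over 4000 genes, all with *CD3E* and with a median of 25380 UMIs, 6 had them (42.9%, 17.7 to 71.1), above 21.4%. The share in kept cells with *CD3E* was 0.533%, and it was 0 of 290 in kept cells without *CD3E*, which allows a share of up to 1.03%. Depth differs between these sets, and its part in the shares was not tested.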

How the results depend on the processing

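The share of S cells, 5.16% as reported, moved with the class limit: 20.5% with 2 or more genes, 1.57% with 4 or more, 10.1% with 3 or more summed UMIs, 7.86% with *HMGB2*, *TUBB* and *STMN1* counted, 1.15% thinned, 4.66% without the top 5% of doublet scores, 0.875% where *DUT*, *PCNA* and *RRM1* decided no class, and 0.479% with 6 or more S genes, or 0.418% of these without the top doublet scores. In the same way G2/M cells were 0.944% with 2 or more genes, 0.301% by summed UMIs and 4.28% with the 3 broader genes, and S+G2/M cells were 0.985%, 0.574% and 1.89%, with 0.233% for 4 or more genes and 0.115% thinned. Members past 2-fold, 33 as reported, numbered 18 with 2 or more genes, 17 with the broader genes and 14 on CPM + 50.

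Other cycle genes past 2-fold in all class cells, 7 as reported, numbered 1 with 2 or more genes, 32 with 4 or more, 2 by summed UMIs, 2 with the broader genes, 23 (of 40 tested) thinned, 11 without the top doublet scores, 4 by the mean over cells, 27 on CPM + 1, 0 on CPM + 50, 28 at 1.5-fold, 38 without *DUT*, *PCNA* and *RRM1*, and 42 with 6 or more S genes, or 44 of these without the top doublet scores. None fell by the limit under any setting. For these alternatives the share of all genes past the limit is not given. The counts of cycle genes, members and inhibitors therefore have no background beside them, and a looser limit lets more of any genes pass. Inhibitors, 0 as reported, were higher in 1 at 1.5-fold and in 2 with 6 or more S genes and no top doublet scores, and lower in 1 under either setting with 6 or more S genes.

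*HBA* in S cells, at -1.14 on CPM + 10, turned to 0.41 thinned, 0.65 with 2 or more *CD3E* UMIs, 0.65 without the top doublet scores, 0.38 and 2.15 with 6 or more S genes with and without them, 0.14 without *DUT*, *PCNA* and *RRM1*, and 0.63 without the cell of 50 or more *HBA* UMIs. *CXCR3* with 3 or more G2/M genes, at 0.95, turned to -2.39 thinned, where 13 cells held no UMI. *CX3CR1* in S cells, at 0.36, came to 0.01 (interval -0.15 to 0.16) with 2 or more genes, 0.01 by summed UMIs and 0.02 with the broader genes, so that no direction was left, and *GZMB* in S cells, at 0.42, came to 0.06 and 0.08 in the first 2 of these. In cells with 3 or more G2/M genes *CX3CR1* came to 0.46 (-0.19 to 1.16) with 4 or more genes. In S cells 8 of 22 settings were counted as moving *CX3CR1* and 9 of 22 as moving *GZMB*, outside the plain interval of the reported setting. Values in this paragraph are on CPM + 10, while the intervals are those of the plain ratio. A change of the added CPM or of the averaging can therefore move a value without any change in counts. The settings with 6 or more S genes, without *DUT*, *PCNA* and *RRM1*, without B gene cells, without high *HBA* and with the 13 named mitochondrial genes alone were chosen after seeing the data.

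No paired analysis was possible because there is 1 sample, and for the same reason no replicate could be left out. Depth limits rare genes: a gene seen in no cell of a group of 39 or 35 may still be expressed there.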

Other observations

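Histone genes, named here by the size of their ratios after these had been seen, differed between the 39 cells with 3 or more G2/M genes and the 35 cells with 6 or more S genes. *H3C13* had 458 UMIs in 13 of the 39 cells (1317 CPM), 1 UMI in the 35 cells and 13 UMIs in 6895 cells of no class. Replication-dependent histone mRNA of this kind is made while DNA is copied. *H3C12* had 105 UMIs and *H3C6* 111 in the 39 cells, and neither had any in the 35. *H4C3* had 127 against 12 UMIs, and the linker histone gene *H1-3* 289 against 28. A UMI of *H3C13*, *H3C12*, *H3C6* or *H3C2* was found in 17 of 39 cells (43.6%, 27.8 to 60.4), 2 of 35 (5.71%, 0.6997 to 19.2) and 1.595% of cells of no class. Few cells carried most of it: 3 cells held 270, 264 and 122 of the 724 UMIs (90.6%). All 6 cells with 5 or more of these UMIs were S+G2/M cells. Histone genes have near-identical copies, so the split of UMIs among them is uncertain.

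*TRBV11-1*, a variable segment of the T cell receptor beta chain, was also named by its ratio in cells with 6 or more S genes. It had 114 UMIs in 9 of the 35 cells (454 CPM), up to 38 in a cell, against 36.3 CPM in cells of no class, and 7 UMIs in 7 of the 39 cells with 3 or more G2/M genes. *HBQ1*, the theta-globin gene, was found in 13 of 35 and 14 of 39 cells, at 71.7 and 77.6 CPM against 4.52. *CDCA7*, *BRCA1* and *ASF1B*, of DNA repair and chromatin assembly, were also higher with 6 or more S genes, at 59.8, 63.8 and 91.7 CPM against 1.61, 2.44 and 10.3. They were higher with 3 or more G2/M genes too, at 66.1, 31.6 and 74.8 CPM.

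All S cells against cells of no class included other named genes. *CD79B* and *MS4A1*, of B cells, had log2 ratios of 2.57 and 2.54, and the immediate early genes *NR4A1* and *EGR1* 2.27 and 1.77. *EGR1* had 363 UMIs in 35 of the 377 S cells, but 1 UMI in the 35 cells with 6 or more S genes. *HMGN2*, a nucleosome-binding protein, stood at 1599 CPM with 3 or more G2/M genes against 264 in cells of no class and was found in 37 of 39 cells.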
